A study of Mus musculus with 2 samples.

Results

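ADAM proteases, ADAMTS proteases, matrix metalloproteases (MMPs) and their inhibitors were examined in sorted lung epithelial cells of adult mice. Members were the gene symbols that begin with Adam and a digit, with Adamts or with Mmp and a digit, together with Timp1 to Timp4, Reck and Bsg. This gave 85 of the 22072 symbols in the tables, namely 32 ADAM, 19 ADAMTS, 5 ADAMTS-like and 23 MMP genes, 5 inhibitors and the inducer Bsg. Of these, 22 reached a mean of 1 FPKM over both libraries (fragments per kilobase of transcript, scaled to the mapped total of a library) and are called the measured members here.

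There were 2 RNA-seq libraries, each made from the pooled RNA of 4 mice. The library labelled Mst1/2-deleted came from mice that carried Scgb1a1-rtTA and tetOCre with both Mst1-flx/flx and Mst2-flx/flx, in which doxycycline switches on Cre through the club cell promoter Scgb1a1. The control library came from mice with tetOCre and the same Mst1-flx/flx and Mst2-flx/flx alleles but no rtTA activator. All mice had doxycycline in food at 625 mg/kg for 16 days, and Lin-/CD326+/CD24-intermediate cells were sorted from lung to enrich non-ciliated secretory airway cells. Effects of the activator, of active Cre and of the deletion cannot be told apart in this design. With 1 pooled library per genotype no difference had a replicate check, no test was possible and no p-value is given. The intervals below are 95% intervals for counting error only.

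ADAMs are membrane proteases that cut the outer part of growth factors, cytokines, adhesion proteins and receptors off the cell surface, a step called shedding. ADAMTS proteases and MMPs act mostly on matrix proteins, and membrane-type MMPs do so at the cell surface. All 3 families hold a zinc ion in the active site, are made with a blocking prodomain, and are held in check by the tissue inhibitors of metalloproteases (TIMPs) and by the membrane-anchored inhibitor Reck. In lung these enzymes are best known from repair, from emphysema and from the release of epidermal growth factor ligands in the airway.

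The zinc-binding motif shared by these families was searched in frame in the coding sequence of the deposited RefSeq entries, read from GENCODE M21 transcripts (GRCm38). It was present in 75 of 19986 matched genes, or 0.375%, and in 58 of 83 matched members. A missing match says only that these letters are not in the sequence read, since the protease Adamts9, for example, had none. Among the 21 measured members with a match, 14 carried it. Capitals below mark the codons of the zinc-binding histidines, the catalytic glutamate and the glycine, or in Adamts1 asparagine, between them. The stretches are shown for the ADAMs that carry the motif and have a mean of at least 5 FPKM, and for all measured ADAMTS proteases and MMPs.
Adam19: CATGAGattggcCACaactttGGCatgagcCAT
Adam17: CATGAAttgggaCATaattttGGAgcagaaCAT
Adam9: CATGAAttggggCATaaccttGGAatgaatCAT
Adam28: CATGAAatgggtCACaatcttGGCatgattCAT
Adam10: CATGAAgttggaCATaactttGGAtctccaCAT
Adamts5: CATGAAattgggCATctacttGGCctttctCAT
Adamts1: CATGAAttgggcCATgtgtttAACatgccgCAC
Adamts10: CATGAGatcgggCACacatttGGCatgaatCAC
Mmp14: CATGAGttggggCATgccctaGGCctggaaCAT
Mmp15: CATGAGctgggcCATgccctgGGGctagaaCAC
Mmp11: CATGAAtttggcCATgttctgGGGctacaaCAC
Mmp23: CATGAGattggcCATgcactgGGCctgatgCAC
No such stretch was found in Adam22, Adamtsl1 or Adamtsl4, nor in the inhibitors and Bsg. Adamtsl5 had no matched transcript. Adamtsl4, which had the largest difference of the measured members, is thus among those without the protease motif. The 14 measured members with the motif had a median log2 difference of 0.36 on the log2(FPKM + 1) scale, and 3 of them were at least 1.5-fold higher, against 2.78% of all 9567 genes that passed the same minimum. Among the 14, Mmp23, which is among the 3, and Adam1b were under 1 FPKM in the control library. They passed the minimum through the library labelled Mst1/2-deleted, which favours these values. Adamts10 is also among the 14, but the coding entry read for its motif was at 0.00126 FPKM or lower. Nearly all of its signal was assigned to noncoding entries, as given below. The 3 matched ADAM and ADAMTS-like members without the motif had a median of 0.18, and 1 was higher. That median is the value of Adam22, which is uncertain for the split of its reads among transcripts, as given below. With 3 genes it is no basis for a contrast with the 14.

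The inducer Bsg and the inhibitor Timp3 were by far the most abundant members, as the plot of levels shows. Bsg (basigin or CD147, an inducer of MMPs and a chaperone of lactate transporters) had 210.4 FPKM in the library labelled Mst1/2-deleted and 168.4 FPKM in the control library, ranks 58 and 78 of all symbols. Timp3, the inhibitor that binds to matrix and also blocks Adam17, followed with 100.05 FPKM in the library labelled Mst1/2-deleted and 63.1 FPKM in the control library. The summed level of the inhibitors was 115.001 FPKM in the library labelled Mst1/2-deleted and 75.8 FPKM in the control library. The 23 MMP genes together had 25.8 FPKM in the library labelled Mst1/2-deleted and 17.5 FPKM in the control library, and the 32 ADAM genes 53.4 FPKM and 46.2 FPKM in the same order of libraries. Inhibitor RNA thus exceeded MMP RNA in both libraries on the FPKM scale, but through Timp3 alone. Timp3 held 100.05 of the 115.001 FPKM in the library labelled Mst1/2-deleted and 63.1 of the 75.8 FPKM in the control library. Without Timp3, the inhibitors summed to less than the MMPs in both libraries.

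**Figure D1:**
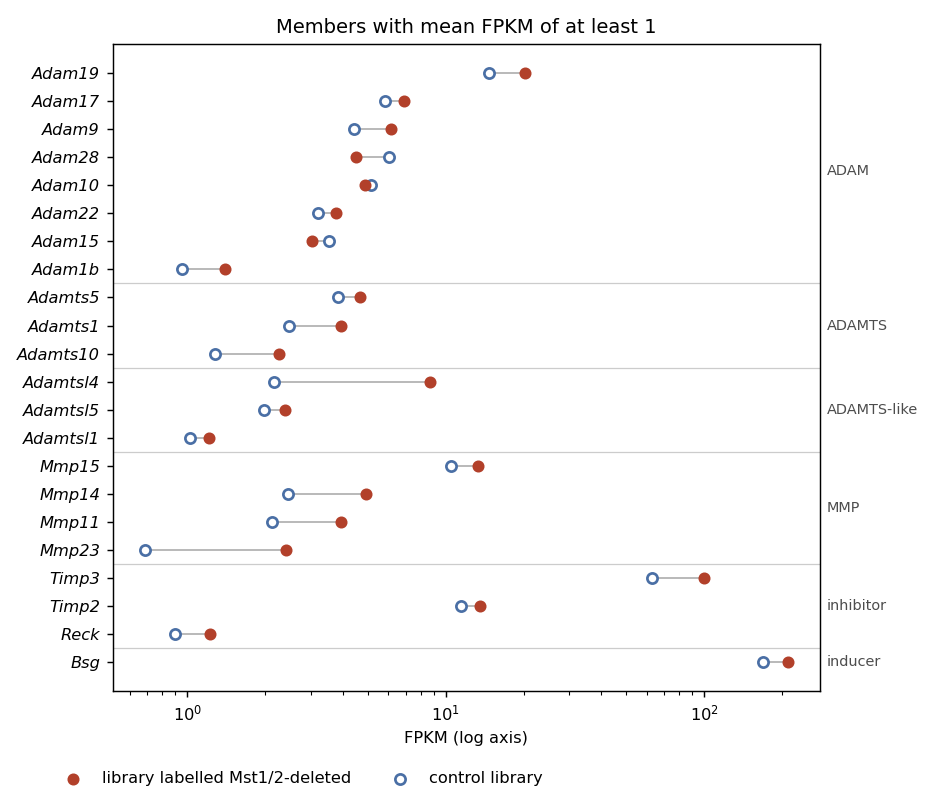
FPKM (log axis) of the 22 measured members in the library labelled Mst1/2-deleted (filled) and the control library (open), 1 pooled library each, grouped by role. Bsg at 210.4 and 168.4 FPKM and Timp3 at 100.05 and 63.1 FPKM stand above all the others, and the widest gap is that of Adamtsl4.

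Most measured members leaned towards the library labelled Mst1/2-deleted. On the log2(FPKM + 1) scale 19 of 22 lay above 0 and 3 below, and 5 were at least 1.5-fold higher, namely Adamtsl4, Mmp23, Mmp14, Timp3 and Mmp11, while 0 were 1.5-fold lower. Mmp23, Adam1b and Reck passed the mean of 1 FPKM through the library labelled Mst1/2-deleted, being under 1 FPKM in the control library, so their place among the 19 was favoured by the minimum. The same holds for Mmp23 among the 5 that were higher. The place of Adam22 above 0 rests on how its reads were split among its transcripts, as given below. Below the minimum, 21 of the 63 members lay above 0 and 22 below. Over all 9567 genes with a mean of at least 1 FPKM, 2.78% were at least 1.5-fold higher, 2.20% at least 1.5-fold lower and 63.7% above 0. The median log2 difference was 0.31 for the measured members and 0.07 for all genes. Centred on the median of all genes, 4 members were higher and 0 lower, against 1.89% and 2.83% of all genes. Rescaled to TPM, in which all values of a library have the same fixed sum, 7 of 34 members that then passed the minimum were higher and 3, Mmp2, Mmp19 and Timp1, were lower, the last 2 being named after their values were seen, against 6.21% higher and 8.03% lower of all genes, so the share of lower members was near that of all genes. Members had long transcripts, with a median of 3920.5 bases against 2754 bases for all genes, and the difference went up with length. Genes with transcripts from 3000 to below 5000 bases had a median of 0.09, and genes under 1000 bases one of -0.05. Centred on genes of like length, the members had a median of 0.24.

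**Figure D2:**
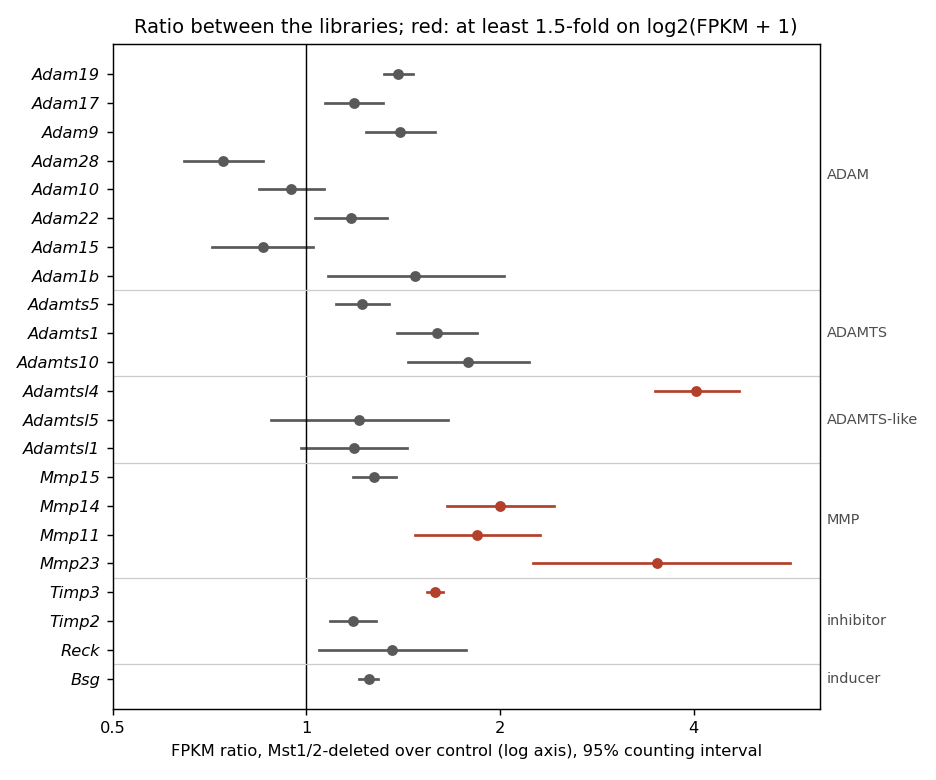
FPKM ratio of the library labelled Mst1/2-deleted over the control library (log axis) for the 22 measured members, with 95% counting intervals as bars. Adamtsl4 (4.04) and Mmp23 (3.51) lie furthest right, and Adam28, Adam15 and Adam10 lie left of 1.

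Among the MMPs, all 4 measured genes had the higher value in the library labelled Mst1/2-deleted, and 3 passed 1.5-fold. Mmp14 encodes MT1-MMP, the membrane protease that cleaves collagen and activates proMMP2. It had 4.91 FPKM in the library labelled Mst1/2-deleted and 2.46 FPKM in the control library, a ratio of 2.00 with an interval of 1.65 to 2.42 (chr14:55050441-55060095, mm9). Mmp11, or stromelysin-3, is secreted as an active enzyme after furin cleavage. It had 3.93 FPKM in the library labelled Mst1/2-deleted and 2.13 FPKM in the control library, a ratio of 1.84 (1.47 to 2.31; chr10:75385969-75395208). Mmp23, a small MMP with a membrane anchor at its amino terminus, had 2.41 FPKM in the library labelled Mst1/2-deleted and 0.686 FPKM in the control library. Its ratio of 3.51 rested on about 84 and 27 reads (2.25 to 5.63; chr4:155024764-155027493), and it was under 1 FPKM in the control library. Mmp15, or MT2-MMP, was the most abundant MMP. It had 13.3 FPKM in the library labelled Mst1/2-deleted and 10.5 FPKM in the control library, a smaller ratio of 1.27 (1.18 to 1.38).

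The other 19 MMP genes stayed below a mean of 1 FPKM. The gelatinase Mmp2, the target of Mmp14, had 0.338 FPKM in the library labelled Mst1/2-deleted and 0.594 FPKM in the control library. The cluster on chromosome 9 (chr9:7272514-7699416, mm9) holds 10 of these genes, the collagenases Mmp13, Mmp1a, Mmp1b and Mmp8, the stromelysins Mmp3 and Mmp10, the macrophage elastase Mmp12, the matrilysin Mmp7, and Mmp20 and Mmp27. None of them exceeded 0.0249 FPKM in the library labelled Mst1/2-deleted or 0.104 FPKM in the control library, and 6 had no read in either. Mmp7, an epithelial MMP that cuts many surface proteins and was chosen for mention after its values were seen, was listed at 0 in both libraries, where 3 reads would have been 0.141 FPKM and 0.126 FPKM. Mmp12, also chosen after its values were seen, was listed at 0 in the library labelled Mst1/2-deleted and had about 7 reads in the control library. Set against a floor of 3 reads this is 1.97-fold, a value that leaves out the counting error of the control reads. The leukocyte and macrophage markers summed to 9.77 FPKM in the library labelled Mst1/2-deleted and 20.6 FPKM in the control library. Of the 5 measured, 4 lay below 0 and 1, Csf1r, above. Their part in the Mmp12 value was not tested.

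Among the inhibitors, Timp3 was 1.59-fold higher in the library labelled Mst1/2-deleted (1.54 to 1.63; chr10:85763157-85812250), on about 11383 reads there and 8022 in the control library. Its locus lies within that of Syn3, a synapsin gene at 1.43 FPKM in the library labelled Mst1/2-deleted and 1.40 FPKM in the control library. Centring on genes of like transcript length moved its log2 difference to 0.56, below the 1.5-fold line of 0.58. Timp2, which forms a complex with Mmp14 and proMMP2, had 13.5 FPKM in the library labelled Mst1/2-deleted and 11.5 FPKM in the control library, a ratio of 1.18 (1.09 to 1.28). Reck was the lowest of the measured members by mean level, at 1.22 FPKM in the library labelled Mst1/2-deleted and 0.898 FPKM in the control library (ratio 1.36, 1.04 to 1.77). Just under the minimum stood Adam1a, at 0.818 and 0.704 FPKM in the same libraries. Timp1 and Timp4, named after their values were seen, had at most 0.155 FPKM in the library labelled Mst1/2-deleted and 0.312 FPKM in the control library. Bsg had a ratio of 1.25 (1.21 to 1.29).

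The ADAM sheddases differed little and in both directions. Adam17, the main sheddase of tumour necrosis factor and of several epidermal growth factor ligands, had 6.90 FPKM in the library labelled Mst1/2-deleted and 5.82 FPKM in the control library (ratio 1.18, 1.07 to 1.32). Adam10, the sheddase of Notch receptors and E-cadherin, had 4.88 FPKM in the library labelled Mst1/2-deleted and 5.15 FPKM in the control library, and its interval of 0.844 to 1.06 included 1. Adam19, which can shed neuregulins, was the most abundant ADAM, at 20.3 FPKM in the library labelled Mst1/2-deleted and 14.6 FPKM in the control library (1.39, 1.32 to 1.46). Adam9 had 6.15 FPKM in the library labelled Mst1/2-deleted and 4.40 FPKM in the control library (1.40, 1.24 to 1.58). Adam1b, a testis ADAM of the fertilin complex, had 1.40 FPKM in the library labelled Mst1/2-deleted and 0.950 FPKM in the control library, and its reads may be shared with the near copy Adam1a, so both values are uncertain. Of the 8 measured ADAMs, 5 lay above 0 and 3 below, and 0 of them were 1.5-fold apart. Adam17 overlaps the end of Iah1 by its listed coordinates, and Iah1 had 7.64 FPKM in the library labelled Mst1/2-deleted and 7.83 FPKM in the control library.

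The members below 0 were Adam28, Adam15 and Adam10, and Adam28 also differed between the libraries in its transcripts. Adam28 had 4.48 FPKM in the library labelled Mst1/2-deleted and 6.03 FPKM in the control library (ratio 0.743, 0.644 to 0.856). The transcript of 3025 bases was close in the 2 libraries, at 3.11 FPKM in the library labelled Mst1/2-deleted and 3.18 FPKM in the control library. The shortest transcript, of 2638 bases, was assigned no read in the library labelled Mst1/2-deleted and 1.04 FPKM in the control library. Taken by its highest transcript alone, Adam28 had a log2 difference of -0.02 in place of -0.36. Adam15, a membrane ADAM of adhesion sites, had 3.03 FPKM in the library labelled Mst1/2-deleted and 3.54 FPKM in the control library (0.856, 0.714 to 1.02). Adam22, known as a noncatalytic receptor on neurons, had 3.75 FPKM in the library labelled Mst1/2-deleted and 3.20 FPKM in the control library. Its transcript of 9068 bases had 1.30 FPKM in the library labelled Mst1/2-deleted and 1.64 FPKM in the control library, while the one of 2669 bases had 2.12 FPKM and 1.21 FPKM in the same libraries, so its transcripts went opposite ways. Adam22 had about 447 reads in the library labelled Mst1/2-deleted and 518 in the control library, while the FPKM ratio of the gene sum was 1.17 (1.03 to 1.33). Cufflinks divides reads that fit several transcripts of a gene among them, so such splits are uncertain. The FPKM sum of Adam22 depends on its split, because its transcripts differ in length. Its ratio above 1 and the interval, which covers counting error only, are therefore uncertain too.

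**Figure D3:**
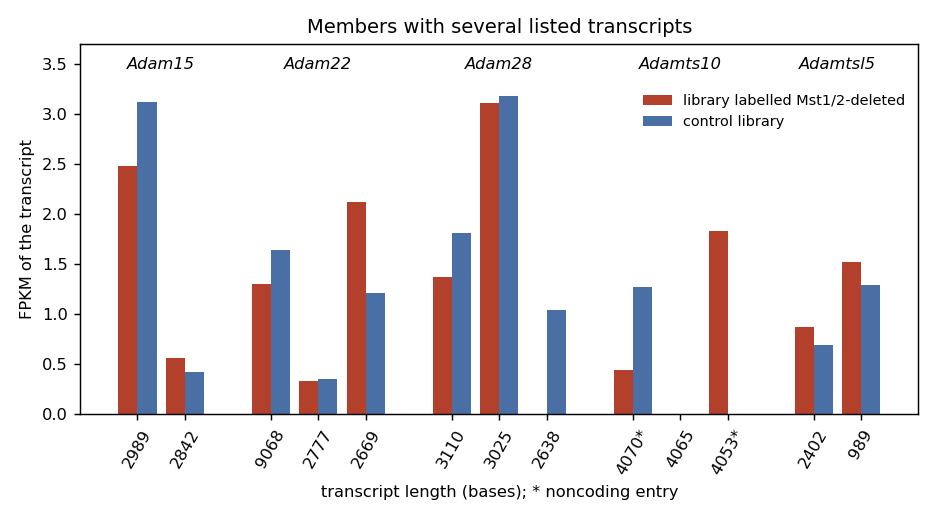
FPKM of each listed transcript of Adam15, Adam22, Adam28, Adamts10 and Adamtsl5 in the library labelled Mst1/2-deleted (left bar) and the control library (right bar), 1 pooled library each. The shortest Adam28 transcript has a bar in the control library alone, and the Adamts10 value sits on a different noncoding entry in each library.

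Adamtsl4 showed the largest difference of the measured members. This secreted ADAMTS-like protein binds fibrillin and is needed to hold the lens in place in humans. It had 8.72 FPKM in the library labelled Mst1/2-deleted and 2.16 FPKM in the control library, a ratio of 4.04 (3.48 to 4.70) on about 817 and 226 reads (chr3:95480127-95491781). Its relatives Adamtsl5 and Adamtsl1 did not share this size. Adamtsl5 had 2.40 FPKM in the library labelled Mst1/2-deleted and 1.98 FPKM in the control library, and Adamtsl1 1.22 FPKM and 1.03 FPKM in the same libraries, both with intervals that included 1.

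Each of the 3 measured ADAMTS proteases had a smaller ratio above 1, and 0 passed 1.5-fold with the pseudocount of 1. Adamts1, which cleaves versican and aggrecan, had 3.94 FPKM in the library labelled Mst1/2-deleted and 2.47 FPKM in the control library, a ratio of 1.59 (1.38 to 1.84). Adamts5, the main aggrecanase, had 4.66 FPKM in the library labelled Mst1/2-deleted and 3.82 FPKM in the control library (1.22, 1.11 to 1.34). Adamts10, which binds fibrillin, had 2.27 FPKM in the library labelled Mst1/2-deleted and 1.28 FPKM in the control library (1.78, 1.44 to 2.22). Nearly all of the Adamts10 signal was on noncoding entries, with 80.5% on the entry of 4053 bases in the library labelled Mst1/2-deleted and 99.98% on that of 4070 bases in the control library, and the coding entry was at 0.00126 FPKM or lower. The 3 entries differ by few bases in length, so their levels as separate RNAs are uncertain. Adamts1 and Adamts10 were not 1.5-fold higher on the log2(FPKM + 1) scale but were with a pseudocount of 0.1. Adamts9 had 0.535 FPKM in the library labelled Mst1/2-deleted and 0.543 FPKM in the control library.

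Of the 63 members under the mean of 1 FPKM, 20 had no read in either library and 30 had at most 3 reads in both. With the pseudocount of 1, 0 of them were 1.5-fold apart. Chromosome 8 holds 12 ADAM genes, of which 8 had no read in either library, and Adam9 was the highest of them. Many of these ADAMs are known from testis.

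RefSeq promoter windows of 250 bases before to 50 after the gene start (GRCm38.p6) were given for 16 of the 22 measured members. The motif GGGCGG, the core of the GC box, was present on either strand in 14 of their 19 windows, against 35.7% of 32851 windows of all genes. The motif GGAATG, which TEAD factors bind, was present in 2 of the 19 windows, against 14.7% of all windows. TGANTCA, the AP-1 motif, was present in 2 of the 19, against 7.81%, and TATAA in 4, against 24.9%. The windows of all genes include genes under the mean of 1 FPKM, so they are an unlike background for measured members. Shares among genes that passed the minimum were not computed. All windows of the 5 members that were at least 1.5-fold higher are shown, with GGGCGG or its complement in capitals, for Adamtsl4 (chr3:95687868-95688167, minus strand), Mmp23 (window 1 chr4:155653335-155653634 and window 2 chr4:155653241-155653540, minus strand), Mmp14 (chr14:54431348-54431647, plus strand), Timp3 (chr10:86300162-86300461, plus strand) and Mmp11 (chr10:75932453-75932752, minus strand).
Adamtsl4: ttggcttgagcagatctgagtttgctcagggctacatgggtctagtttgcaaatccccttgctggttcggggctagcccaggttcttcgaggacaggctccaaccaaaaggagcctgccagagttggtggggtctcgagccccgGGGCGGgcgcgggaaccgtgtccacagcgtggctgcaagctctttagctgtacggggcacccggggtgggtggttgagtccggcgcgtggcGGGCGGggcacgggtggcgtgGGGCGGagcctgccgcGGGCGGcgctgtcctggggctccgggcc
Mmp23, window 1: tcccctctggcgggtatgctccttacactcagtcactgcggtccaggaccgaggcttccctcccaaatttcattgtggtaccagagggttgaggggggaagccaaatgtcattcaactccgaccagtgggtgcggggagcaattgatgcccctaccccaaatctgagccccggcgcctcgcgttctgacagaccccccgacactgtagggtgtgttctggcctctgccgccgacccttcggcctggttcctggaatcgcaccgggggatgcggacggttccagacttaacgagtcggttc
Mmp23, window 2: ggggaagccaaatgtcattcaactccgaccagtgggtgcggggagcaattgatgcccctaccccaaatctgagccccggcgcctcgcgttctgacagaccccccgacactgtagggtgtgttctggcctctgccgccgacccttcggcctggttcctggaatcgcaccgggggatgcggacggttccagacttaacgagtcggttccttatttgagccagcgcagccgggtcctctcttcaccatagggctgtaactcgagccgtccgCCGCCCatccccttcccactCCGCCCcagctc
Mmp14: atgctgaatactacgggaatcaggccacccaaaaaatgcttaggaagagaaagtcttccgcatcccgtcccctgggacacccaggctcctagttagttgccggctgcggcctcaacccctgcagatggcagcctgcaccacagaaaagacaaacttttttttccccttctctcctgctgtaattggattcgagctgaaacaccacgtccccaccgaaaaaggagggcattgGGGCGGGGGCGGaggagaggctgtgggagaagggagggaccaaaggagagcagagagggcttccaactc
Timp3: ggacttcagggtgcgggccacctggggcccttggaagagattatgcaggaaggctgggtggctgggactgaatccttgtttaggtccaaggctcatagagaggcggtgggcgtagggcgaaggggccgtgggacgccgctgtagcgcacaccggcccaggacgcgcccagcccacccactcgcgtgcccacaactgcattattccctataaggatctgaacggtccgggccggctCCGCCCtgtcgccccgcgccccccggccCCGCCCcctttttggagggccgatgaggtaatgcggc
Mmp11: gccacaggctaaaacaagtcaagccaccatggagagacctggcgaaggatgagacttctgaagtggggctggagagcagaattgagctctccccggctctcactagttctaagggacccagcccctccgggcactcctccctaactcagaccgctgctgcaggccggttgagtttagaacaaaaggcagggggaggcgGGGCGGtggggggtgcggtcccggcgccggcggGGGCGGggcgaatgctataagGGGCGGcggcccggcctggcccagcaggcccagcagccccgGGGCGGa
Adamtsl4 and Mmp11 hold 4 matches each, Mmp14 and Timp3 2 each, and Mmp23 0 in window 1 and 2 in window 2, which overlaps it. GGAATG and TGANTCA are in 0 of these windows. Timp3 and Mmp11 also hold 1 match each to TATAA. That of Timp3 begins 44 bases before the start, and that of Mmp11 begins 4 bases before the start and reaches it. Matches are descriptions of letters, not of sites in use.

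Partners and activators of the sheddases differed in both directions. Of 10 measured genes, with the pseudocount of 1, 1 passed 1.5-fold upwards and 0 downwards, with 5 above and 5 below 0 and a median of 0.08. For this and all lists below, with the pseudocount of 1, the shares over all 9567 genes were 2.78% higher and 2.20% lower, with a median of 0.07. With a pseudocount of 0.1, 1 partner was higher and 1 lower, against 5.28% and 3.91% of all genes. In TPM also 1 was higher and 1 lower, against 6.21% and 8.03%. Tspan15, a tetraspanin that escorts Adam10, had 3.51 FPKM in the library labelled Mst1/2-deleted and 1.81 FPKM in the control library, a ratio of 1.94 (1.61 to 2.35). Tspan14, of the same group, had 3.69 FPKM and 2.76 FPKM in the same libraries, and Tspan5 had 0.889 FPKM and 1.48 FPKM (ratio 0.599, 0.440 to 0.809). Rhbdf2, the inactive rhomboid that matures Adam17, had 5.70 FPKM in the library labelled Mst1/2-deleted and 5.96 FPKM in the control library. Furin, the convertase that removes the prodomain of many ADAMs and of Mmp14, had 6.14 FPKM in the library labelled Mst1/2-deleted and 5.34 FPKM in the control library (1.15, 1.03 to 1.29).

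Known shed substrates had a median log2 difference of 0.06 over 25 measured genes, near the 0.07 of all genes. Of the 25, 3 were at least 1.5-fold higher and 1 lower. Ager, a receptor shed by Adam10, had 106.9 FPKM in the library labelled Mst1/2-deleted and 32.9 FPKM in the control library, and it is also a marker of alveolar type 1 cells. Icam1, an adhesion molecule for leukocytes, had 47.96 FPKM in the library labelled Mst1/2-deleted and 27.4 FPKM in the control library. Nrg1, a neuregulin ligand, had 2.31 FPKM in the library labelled Mst1/2-deleted and 1.11 FPKM in the control library (2.08, 1.52 to 2.86), and was named after its values were seen. Tnf was the lower one, at 1.12 FPKM in the library labelled Mst1/2-deleted and 3.32 FPKM in the control library. The most abundant substrates besides Ager differed little. Cdh1 (E-cadherin) had 96.5 FPKM in the library labelled Mst1/2-deleted and 91.7 FPKM in the control library, Sdc4 (syndecan-4) 93.6 FPKM and 77.1 FPKM, and Alcam 87.6 FPKM and 84.1 FPKM in the same libraries.

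Matrix proteins that these proteases cut were measured for 18 genes, of which 3 were at least 1.5-fold higher and 2 lower, with a median of 0.30. Sparc, a matrix glycoprotein that binds collagen, had 109.8 FPKM in the library labelled Mst1/2-deleted and 51.4 FPKM in the control library, a ratio of 2.14 (2.05 to 2.23). The basement membrane collagens Col4a3 and Col4a4 were also higher, at 3.15 and 2.87 FPKM in the library labelled Mst1/2-deleted against 1.64 and 1.18 FPKM in the control library, and Col4a2 had 10.8 FPKM and 7.11 FPKM in these libraries. Col4a3 and Col4a4 were named after their values were seen. The small proteoglycans Dcn (decorin) and Bgn (biglycan) were lower, at 3.79 and 2.43 FPKM in the library labelled Mst1/2-deleted against 11.9 and 6.08 FPKM in the control library. Dcn is also in the mesenchymal list below.

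**Figure D4:**
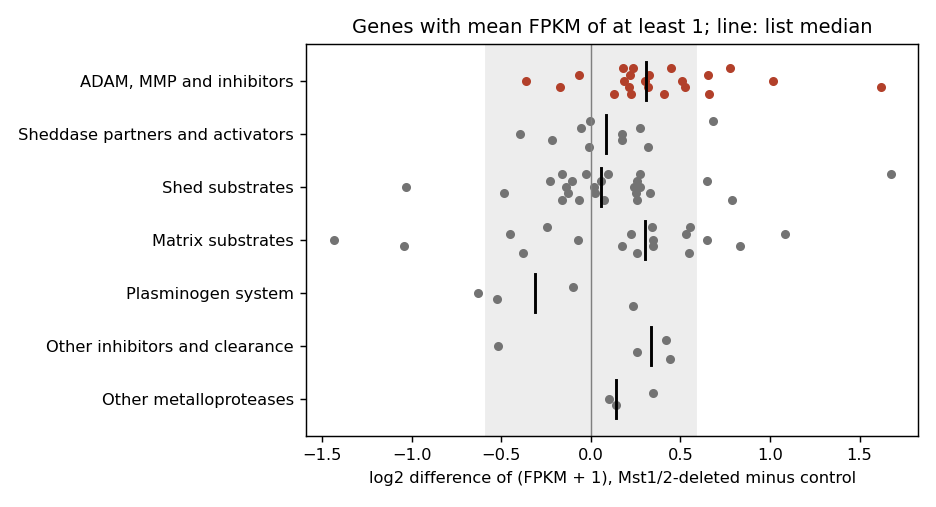
Log2 difference of (FPKM + 1), the library labelled Mst1/2-deleted minus the control library, for genes with a mean of at least 1 FPKM in each list; each point is 1 gene, black lines are list medians and the grey band is within 1.5-fold. The protease and inhibitor members have a median of 0.31, sheddase partners one of 0.08 and shed substrates one of 0.06.

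Cell type markers differed between the same libraries, and their part in the values above was not tested. Fewer cells of a type and less RNA per cell cannot be told apart in such pools. Of 10 alveolar type 1 markers, 8 were at least 1.5-fold higher and 0 lower, with a sum of 408.9 FPKM in the library labelled Mst1/2-deleted and 178.5 FPKM in the control library. Of 9 alveolar type 2 markers, 1 was higher, with sums of 14139 FPKM and 11300.3 FPKM in these libraries. Of 7 measured club cell markers, 2 were lower, with sums of 10213 FPKM in the library labelled Mst1/2-deleted and 11968 FPKM in the control library, without Scgb1a1, which is listed at 0 in both. Mesenchymal markers, 2 of 4 measured being lower, summed to 8.91 FPKM in the library labelled Mst1/2-deleted and 20.1 FPKM in the control library. Of the 14 leukocyte and macrophage markers, 5 were measured and 3 were lower, and Emr1 and Mpo had no read in the library labelled Mst1/2-deleted, against about 30 and 1 in the control library. Csf1r, a measured macrophage marker named after its values were seen, went the other way. It had 1.80 FPKM in the library labelled Mst1/2-deleted and 0.984 FPKM in the control library (ratio 1.83, 1.42 to 2.36). Tff2 (mucous) had no read in the library labelled Mst1/2-deleted and about 28 in the control library, and Krt14 (basal) 1 read and none. Mucous markers summed to 10.6 FPKM in the library labelled Mst1/2-deleted and 32.03 FPKM in the control library, and basal markers to 9.26 FPKM and 24.9 FPKM. Ciliated markers summed to 51.2 FPKM in the library labelled Mst1/2-deleted and 30.8 FPKM in the control library. The 7 endothelial markers summed to 6.84 FPKM and 11.7 FPKM in the same libraries. Only 1 of them, Kdr, was measured, and it made up most of both sums. Kdr had 5.11 FPKM in the library labelled Mst1/2-deleted and 9.05 FPKM in the control library. Under the minimum, Cdh5 (0.475 FPKM and 0.425 FPKM in these libraries) and Cldn5 went the other way, and the rest were lower. Cdh5 and Cldn5 were picked for mention with their values already known. The targeted genes differed little. Stk4 (Mst1) had 4.71 FPKM in the library labelled Mst1/2-deleted and 5.38 FPKM in the control library, and Stk3 (Mst2) 7.09 FPKM and 7.28 FPKM. The labels do not say which exons are removed.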

How the data were processed

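RNA of 4 mice per genotype was pooled, and 1 Nextera XT library per genotype was sequenced, per the labels. The build was mm9 and the tools TopHat and Cufflinks, per the submitters' processing notes, with no version or setting stated there. The authors deposited FPKM for 28107 RefSeq transcripts per library. Per the file headers, the authors' coverage signal gives the mean read depth over a transcript, and a further column gives its length. All 103 rows of the members had status OK in both libraries.

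FPKM was summed per gene symbol. Differences are on the log2 scale after adding a pseudocount of 1 to FPKM, Mst1/2-deleted minus control, which understates low genes. Genes entered with a mean of at least 1 FPKM over both libraries, and 1.5-fold on this scale was the line for a count. Coverage times length gave 392.8 and 413.2 Mb of bases in the library labelled Mst1/2-deleted and in the control library. With 1 read taken as 46.9 bases, the median of low values between 25 and 75 bases and an assumption, these are about 8370000 and 8800000 reads. Rounded reads gave exact (Clopper-Pearson) 95% intervals of FPKM ratios, which cover counting error only, since amplified reads are not independent molecules. No fold is given for members with at most 3 reads in both libraries, and a member at 0 in 1 library is set against a floor of 3 reads. The scripts were tested on simulated data. The deposited starts count from 0, and 1 was added. Strand was not available.

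Members and lists were chosen with earlier results of these data known. Every member with a mean of at least 1 FPKM is named. Members below it are named where they reached 0.5 FPKM in 1 library or were 1.5-fold apart, and others only where the text says so. Of each partner list, up to 3 genes with the highest mean and up to 3 with the largest difference are named, and further genes where the text says that they were named after their values were seen or where they had no read. One result of the partner lists is not reported here. Coding sequence is shown in place of the protein stretches first planned, because protein sequences were not used here. Sequences come from RefSeq (GRCm38.p6) and GENCODE M21, and 53 of 85 members had a promoter window. Python 3.11.15, pandas 2.3.3, NumPy 2.4.6, SciPy 1.17.1 and Matplotlib 3.10.9 were used.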

Additional observations from a re-analysis of the deposited data

How the results depend on the processing

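With 1 library per genotype no replicate could be left out. No paired analysis was possible because the labels give 1 pooled library per genotype. The count of 5 members at least 1.5-fold higher was 2 of 10 with a minimum mean of 5 FPKM (Adamtsl4 and Timp3), against 3.42% of all genes. It was 2 with a fold of 2 (Adamtsl4 and Mmp23), against 0.627%. With either centring it was 4, against 1.89% and 2.22%, and it was from 5 to 7 otherwise. The count was 7 with a pseudocount of 0.1 and 7 of 34 in TPM, against 5.28% and 6.21%. The count of 0 lower was 3 after rescaling to TPM and 0 under the other alternatives. The median of 0.31 was 0.38 with a pseudocount of 0.1, 0 over all 85 members without a minimum, 0.19 in TPM, 0.24 when centred on the median of all genes and 0.24 when centred on genes of like transcript length, an alternative chosen after seeing the data. Mmp11 lost its 1.5-fold call with the first centring, at 0.583 against a line of 0.585, and Timp3 with the second, at 0.561. The median of the shed substrates changed sign with these centrings, at -0.012 and -0.037. The first centring takes the median of all genes, 0.0700, from a list median of 0.0584. The second takes off the median of genes of like length. Over all genes the share at least 1.5-fold higher ranged from 1.45% to 6.21% and the share lower from 1.33% to 8.03% across the alternatives at 1.5-fold. Members on few reads, such as Mmp23, are limited by depth.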

Other observations

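Other metalloproteases and some genes of the plasminogen system, which activates several MMPs, also had measurable RNA. Mme (neprilysin, a membrane peptidase of lung epithelium) had 50.5 FPKM in the library labelled Mst1/2-deleted and 39.4 FPKM in the control library, a ratio of 1.28 (1.23 to 1.33). Ece1, the endothelin-converting enzyme, had 27.97 FPKM in the library labelled Mst1/2-deleted and 25.3 FPKM in the control library, and Bmp1, the procollagen C-proteinase, 5.67 FPKM and 5.21 FPKM in the same libraries. Of these 3 measured genes, 0 were 1.5-fold apart on the log2(FPKM + 1) scale. Serpine2 had 6.24 FPKM in the library labelled Mst1/2-deleted and 9.40 FPKM in the control library. Plaur, the urokinase receptor, had 5.05 FPKM in the library labelled Mst1/2-deleted and 4.13 FPKM in the control library, and St14 (matriptase) 6.96 FPKM and 7.53 FPKM in the same libraries. Plg, the gene of plasminogen itself, had no read in either library. The plasminogen activators Plau and Plat, named after their values were seen, were under the minimum. Plau had 0.128 FPKM and 0.373 FPKM in the same order of libraries, and Plat 0.0568 FPKM and 0.205 FPKM.

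Other inhibitors and clearance receptors had, with the pseudocount of 1, 0 of 4 measured genes past 1.5-fold and a median of 0.34. With a pseudocount of 0.1, 1 was higher and 1 lower, against 5.28% and 3.91% of all genes. In TPM 1 was lower, against 8.03% of all genes. With either centring 1 was lower, against 2.83% when centred on all genes and 2.54% when centred on genes of like length. Thbs1, which binds and inhibits several MMPs, had 18.4 FPKM in the library labelled Mst1/2-deleted and 13.6 FPKM in the control library (ratio 1.36, 1.28 to 1.44). Lrp1, the endocytic receptor that takes up MMPs and TIMP complexes, had 0.750 FPKM in the library labelled Mst1/2-deleted and 1.51 FPKM in the control library, a ratio of 0.498 (0.430 to 0.575), whereas its relative Lrp2 had 12.1 FPKM and 9.98 FPKM. Spock2, a testican, had 2.71 FPKM in the library labelled Mst1/2-deleted and 1.73 FPKM in the control library (ratio 1.57, 1.29 to 1.90). The protease inhibitor A2m had no read in either library.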
